A study of Pistacia vera with 121 samples.

Results

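The shell of the pistachio (Pistacia vera, cultivar Kerman) was compared between 2 sampling points early in the season, 1357 and 1106 growing degree days (°C). The comparison takes the 3 shell libraries labelled 1357 (S17, S18 and S19) against the 3 labelled 1106 (S10, S11 and S12), which is 6 of the 121 libraries of the series. The genes are the 37063 identifiers that begin with PvKer, of 38315 in the table; 18747 of them had enough counts to be tested in shell and 13628 had no count in any of the 6 libraries. None of the 38315 identifiers matched the RefSeq gene table of pistachio, and the files do not pair identifiers with names, so the genes are described by identifier, level, timing and behaviour in other tissues, and no gene function or sequence is given.

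The series follows hull, shell and kernel of developing fruit by RNA sequencing, with bulk tissue frozen and ground before total RNA was extracted. Every library came from the same cultivar, and the labels give tissue and degree days and no treatment, tree or year. Further libraries used here are shell at 1223 degree days, which lies between the points compared, and hull at 1357, 1223 and 1106. Shell at the other 8 points from 865 to 2139 was also used. Hull at its other points, up to 2564, entered the fits, and kernel libraries served to choose a list of genes. Nothing in the labels says that the libraries of a group came from separate trees, so p-values measure the spread between these libraries, which may be technical.

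The shell is the endocarp, the inner layer of the fruit wall that encloses the seed. In pistachio, as in other drupes, it first grows to its final size as soft tissue and then hardens, as its cells lay down thick secondary walls impregnated with lignin, the phenolic polymer of wood, and die. The hull is the outer fleshy layer of the same fruit wall and stays soft. Growing degree days are a running sum of daily heat above a base temperature and are used in orchards in place of calendar days to place fruit growth, shell hardening and kernel filling.

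The 6 libraries held 8835327 to 13886106 counts, and 20234 to 20844 PvKer genes had a count in each. Log2 profiles of libraries of 1 group correlated at 0.983 to 0.986 at 1357 and at 0.964 to 0.984 at 1106, where S10 and S12 were the least alike pair. Counts of each pair differed by more than sampling noise (chi-square per degree of freedom of 8.9 or more). Each of the 6 libraries resembled the mean of its own group more than that of any other. Outside the own group, S17, S18 and S19 were nearest to shell at 1106 (r = 0.97, 0.971 and 0.974) and less near to shell at 1223 (r = 0.96, 0.966 and 0.959). Library S14, labelled shell at 1223, resembled hull at 1223 (r = 0.983) more than the other shell libraries of its point (r = 0.929), and H15, labelled hull at 1357, resembled shell at 1223 (r = 0.973) more than its own group (r = 0.904). Both were left out. H33 and H34, labelled hull at 1881, were left out as well, as nearest to another tissue, and no value for this is given here. Results that rest on these points are also given with the libraries kept. These correlations are descriptions over genes, which are not independent.

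In shell, 192 genes were higher at 1357 than at 1106 and 104 were lower, by edgeR's quasi-likelihood test on the counts of 34 shell libraries. The calls needed a log2 fold change of 1 or more in size, besides a Benjamini-Hochberg adjusted p under 0.05. The calls are 1.02% and 0.555% of the 18747 genes tested, and 3577 genes had an unadjusted p below 0.05. The median log2 fold change of all genes tested was -0.06. In bulk tissue a lower value can come from fewer cells of a type or from less RNA per cell, and these cannot be told apart.

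The 192 higher genes had a median log2 fold change of 1.78, with quartiles of 1.34 and 2.32, and 76 of them changed by at least 2 on the log2 scale. The median gene averaged 14 CPM (counts relative to the TMM-adjusted library total) at 1357 and 4.17 CPM at 1106. In 191 of the 192 genes every 1357 library lay above every 1106 library, which the choice of these genes makes nearly certain; the same held for 3007 of all 18747 genes tested (16%). For 5 of them the 1106 libraries held no count at all, so their fitted fold changes are not bounds. With these 5 set to the bound that 3 counts over the group give, the median stayed at 1.78.

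The 104 lower genes had a median log2 fold change of -1.60, and 31 fell by at least 2 on the log2 scale. Their median mean level was 8.43 CPM at 1357 and 24.4 CPM at 1106. Every 1357 library lay below every 1106 library in 102 of the 104 genes, again nearly fixed by the choice, and in 2788 of all genes tested (14.9%). No count was recorded at 1357 for 5 of them, and the median was again -1.60 with those at their bound.

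**Figure D1:**
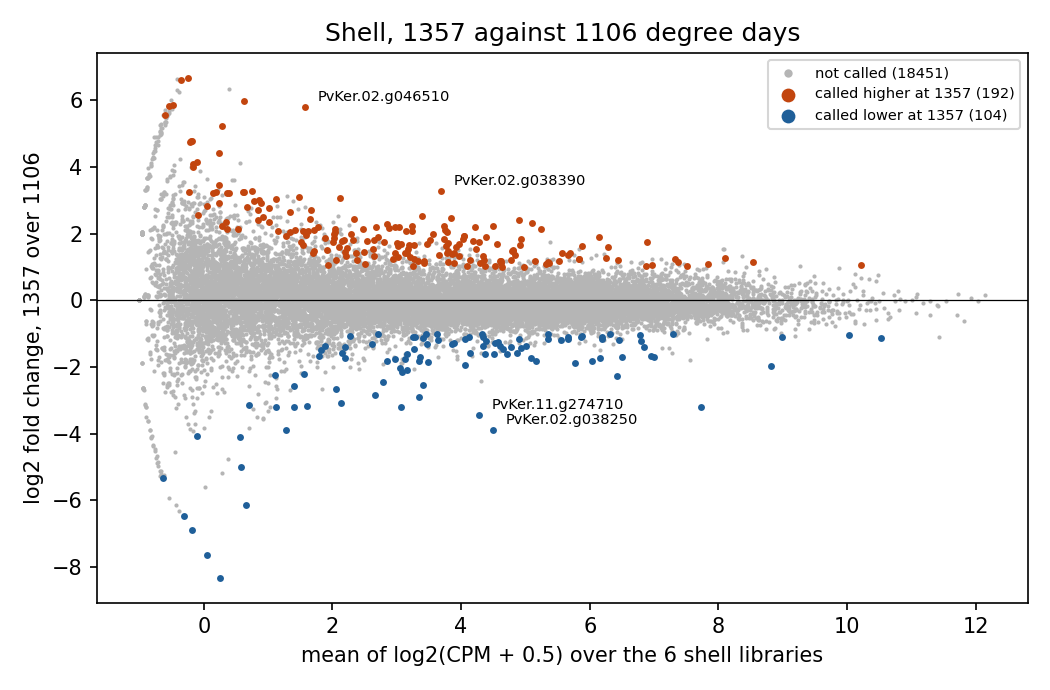
Each point is 1 of the 18747 PvKer genes tested in shell, with the mean of log2(CPM + 0.5) over the 6 libraries on the horizontal axis and the log2 fold change, 1357 over 1106, on the vertical axis. The 192 genes called higher are orange and the 104 called lower are blue; the 4 genes described singly carry their identifiers, and the arcs at the far left are genes with no count in 1 of the groups.

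As a set the higher genes made up 8551, 8970 and 8002 summed CPM in S17, S18 and S19, against 3664, 3326 and 2972 in S10, S11 and S12. The lower genes made up 3827, 4217 and 4205 summed CPM at 1357, against 10167, 9497 and 11773 at 1106. These sums describe the genes that the test chose and support nothing. They rest on few genes: the 5 members with the most CPM, which is not per gene length, held 39.5% of the summed CPM of the higher genes at 1357 and 57.1% of that of the lower genes at 1106. Among the called genes the libraries of a group were not the lowest equally often. Library S12 was the lowest of the 1106 libraries in 119 of the 192 higher genes (62.0%), and S19 the lowest of the 1357 libraries in 96 of them (50%). Among the lower genes, S17 was the lowest of the 1357 libraries in 51 of 104 (49.0%). Shares over all genes tested are not given for these counts, so they are description only.

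The counts of calls depended on single libraries. Without S12, the test called 39 genes higher and 46 lower, and without S17 it called 69 and 17. Without S11 the counts were 76 and 48, without S18 99 and 45, and without S19 128 and 39. Leaving out S10 gave 156 and 108. The median log2 fold change of the 192 genes ranged from 1.64 to 1.89 and that of the 104 genes from -1.67 to -1.46 over the 6 fits. The sign of the genes could hardly turn, since they were chosen on the same libraries. With S14 kept in the fit, although it is in neither group compared, 156 genes were called higher and 76 lower.

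Reads on identifiers named after assembly contigs moved with the groups. Their share of all counts was 4.84%, 3.26% and 1.06% in S17, S18 and S19, against 0.719%, 0.392% and 0.76% in S10, S11 and S12. None of the 86 contig-named identifiers tested was called, and with all of them removed before normalisation 190 and 115 genes were called, among them 188 of the 192 and all 104.

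RNA of the neighbouring tissues was looked for with lists of genes that were high in kernel or hull. Their sources were the kernel libraries, the hull libraries and shell points from 1508 on, so the 6 libraries compared had no part in the choice. The 534 kernel-high genes took 0.337%, 0.323% and 0.341% of the counts in S17, S18 and S19, against 0.342%, 0.367% and 0.469% in S10, S11 and S12, and a median of 31.4% in kernel libraries. The 86 hull-high genes took 0.117%, 0.204% and 0.0918% at 1357, against 0.234%, 0.14% and 0.115% at 1106, and a median of 0.747% in hull. In S14 their share was 1.03%. Of the 480 kernel-high genes tested, 17 (3.54%) were called higher and 6 (1.25%) lower at 1357, and of the 86 hull-high genes 0 and 3 (3.49%), against 1.02% and 0.555% of all genes tested. At 1357 between 32 and 44 of the 534 kernel-high genes had no count, against 82 to 108 at 1106. The part of this in the result was not tested.

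The identifiers carry a chromosome number and a running number. Called genes lay on all 15 chromosomes. The share of tested genes called higher ran from 0.704% on chromosome 6 to 1.58% on chromosome 12, and the share called lower from 0.147% on chromosome 2 to 1.02% on chromosome 11. The next tested identifier in the numbering was called in the same direction for 7 of the 192 higher genes (3.65%) and for 1 of the 104 lower genes (0.962%), against the 1.02% and 0.555% of all genes tested that were called. It was called in the opposite direction for 1 gene of each set.

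A set of 4 genes is described singly: the 2 rises and 2 falls of largest size among called genes that averaged at least 10 CPM in their higher group and whose groups did not overlap. In all, 113 rises and 76 falls met those conditions. Of the 4, 3 are numbered on chromosome 2, where PvKer.02.g038390 and PvKer.02.g038250 stand 14 steps apart in the numbering and moved in opposite directions.

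PvKer.02.g046510 had 11.1, 23.5 and 5.84 CPM in S17, S18 and S19, against 0.207, 0.262 and 0.218 CPM in S10, S11 and S12. Every 1106 library held 3 counts of it, while the 1357 libraries differed among themselves, with S18 highest. The group means were 13.5 ± 9.05 CPM at 1357 and 0.229 ± 0.0289 CPM at 1106 (SD, n = 3 each), and the log2 fold change was 5.80 (SE 0.778; edgeR adjusted p = 0.000124). From the 469 counts at 1357 and the 9 at 1106, the ratio of rates was 60.3, with an exact 95% interval from 31.5 to 133 that covers counting error only. At 1223 it stood at 2.84, 10.1 and 1.37 CPM in S13, S15 and S16, above every 1106 library and, in 2 of the 3, below every 1357 library. It was at 0.161 ± 0.218 CPM at 865 and 0.372 ± 0.273 CPM at 993, reached its highest shell mean at 1357 and averaged 3.05 to 9.01 CPM at the 6 later points.

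PvKer.02.g038390 had 59.9, 30.2 and 30.6 CPM at 1357, against 6.08, 3.66 and 2.47 CPM at 1106. The lowest 1357 library was far above the highest 1106 library. The means were 40.3 ± 17 CPM at 1357 and 4.07 ± 1.84 CPM at 1106 (SD, n = 3 each), and the log2 fold change was 3.27 (SE 0.401; edgeR adjusted p = 6.21e-05). Unlike PvKer.02.g046510 it went on to higher means after 1357, to 49.7 ± 3.10 CPM at 1657 and 97.4 ± 7.01 CPM at 1881, and stood at 34.9 ± 8.75 CPM at 2139 (n = 4 there, 3 elsewhere). At 1223 its libraries spread from 11.3 to 40.7 CPM and overlapped with those of 1357.

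PvKer.02.g038250 had 4.15, 6.89 and 6.16 CPM at 1357, against 102, 74.5 and 76.2 CPM at 1106. The means were 5.73 ± 1.42 CPM at 1357 and 84.3 ± 15.5 CPM at 1106 (SD, n = 3 each), and it fell by 3.89 on the log2 scale (SE 0.75; edgeR adjusted p = 0.00573). At 1223 it had 25.4, 28.6 and 12.4 CPM, between the groups, and S14 had 1.57 CPM. From 1657 on its shell means were at most 2.85 CPM. The call was lost without S17 (adjusted p = 0.0509), with a log2 fold change of -3.71.

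PvKer.11.g274710 had 4.26, 8.25 and 5.21 CPM at 1357, against 92.2, 42.9 and 54.6 CPM at 1106. The means were 5.91 ± 2.09 CPM at 1357 and 63.2 ± 25.7 CPM at 1106 (SD, n = 3 each), and it fell by 3.43 on the log2 scale (SE 0.57; edgeR adjusted p = 0.00168). It was already low at 1223, with 5.13, 4.95 and 8.40 CPM. Its level at 1106 stood above those on either side: the shell mean was 3.53 ± 1.72 CPM at 865, 12.1 ± 6.57 CPM at 993 and 63.2 CPM at 1106, and after the low at 1223 and 1357 it stood at 35.7 ± 33.1 CPM at 1508 and 202 ± 23.3 CPM at 1759. Its mean at 1357 was thus below those of all 6 later points, the lowest of which was 31.7 ± 2.54 CPM at 1657.

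**Figure D2:**
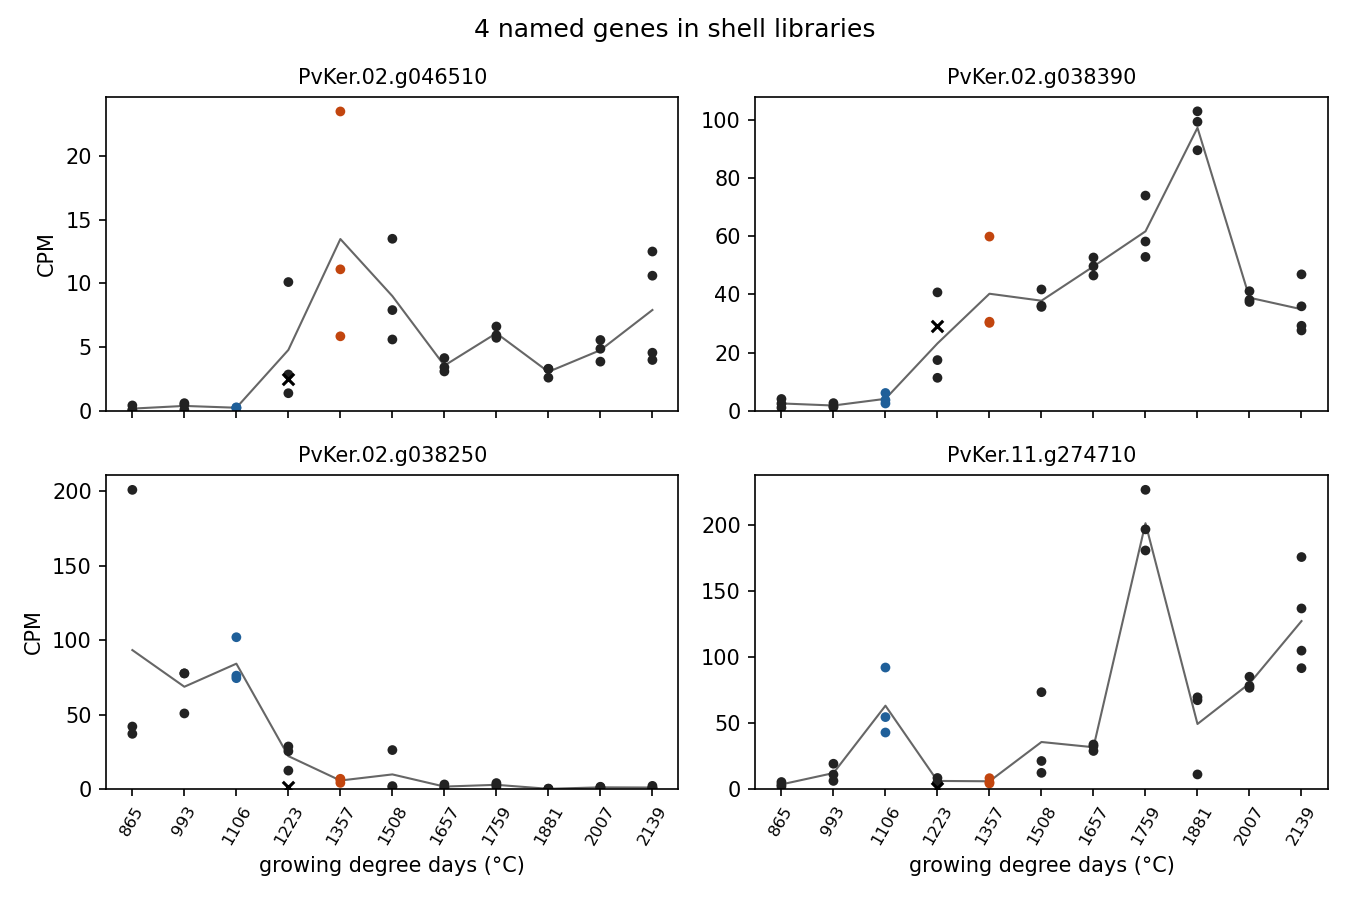
Level in CPM of the 4 genes in shell libraries at 11 sampling points in growing degree days (°C); each point is a library, orange at 1357, blue at 1106 and black elsewhere, the line joins group means without S14, and the cross is S14. Both genes of the upper row stayed above their 1106 level after 1357, PvKer.02.g038250 stayed below it, and PvKer.11.g274710 came back to a mean of 202 CPM at 1759.

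The called genes were also tested at shell points that are in neither group compared. The libraries of these points had a part in the estimate of spread by which the genes were called, so the 2 tests are not independent. The mean of 1508 and 1657 was set against the mean of 865 and 993, in the same fit. Over all genes this wider contrast called 16.3% higher and 19.3% lower. Of the 192 higher genes, 148 (77.1%) were higher at 1508 and 1657 and 1 was lower, with a median log2 fold change of 1.91. Of the 104 lower genes, 63 (60.6%) were lower and 7 were higher, with a median of -1.43. The median over all genes tested was -0.04. PvKer.11.g274710 was among the 7, with a log2 fold change of 2.28 (SE 0.389; edgeR adjusted p = 1.03e-05), while PvKer.02.g046510, PvKer.02.g038390 and PvKer.02.g038250 had log2 fold changes of 4.43, 4.31 and -4.38 in this contrast, with the sign of the comparison of 1357 with 1106.

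A stricter description asks that all 6 shell means after 1357 lie beyond both means before 1106. This held for 122 of the 192 higher genes (63.5%), against 18% of all genes tested, and for 59 of the 104 lower genes (56.7%), against 19.5% of all. The higher genes reached their highest shell mean at different times: 43 at 1357, 30 at 1508, 30 at 1881 and 39 at 2139. The lower genes had their highest mean at 865 in 40 cases, at 993 in 17 and at 1106 in 20, and their lowest at 1357 in 26 and at 1881 in 37. The places at 1357 and 1106 were part of the choice of these genes.

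The higher genes summed to 2257 ± 257 CPM at 865, 2556 ± 92 CPM at 993, 3321 ± 346 CPM at 1106, 6069 ± 275 CPM at 1223 and 8508 ± 485 CPM at 1357, and then to 7503 to 9869 CPM in the 6 later means. The lower genes summed to 11495 ± 1795 CPM at 865, 11308 ± 749 CPM at 993, 10479 ± 1170 CPM at 1106, 4564 ± 111 CPM at 1223 and 4083 ± 222 CPM at 1357 (SD, n = 3 each). Their later means ran from 3925 to 6607 CPM.

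**Figure D3:**
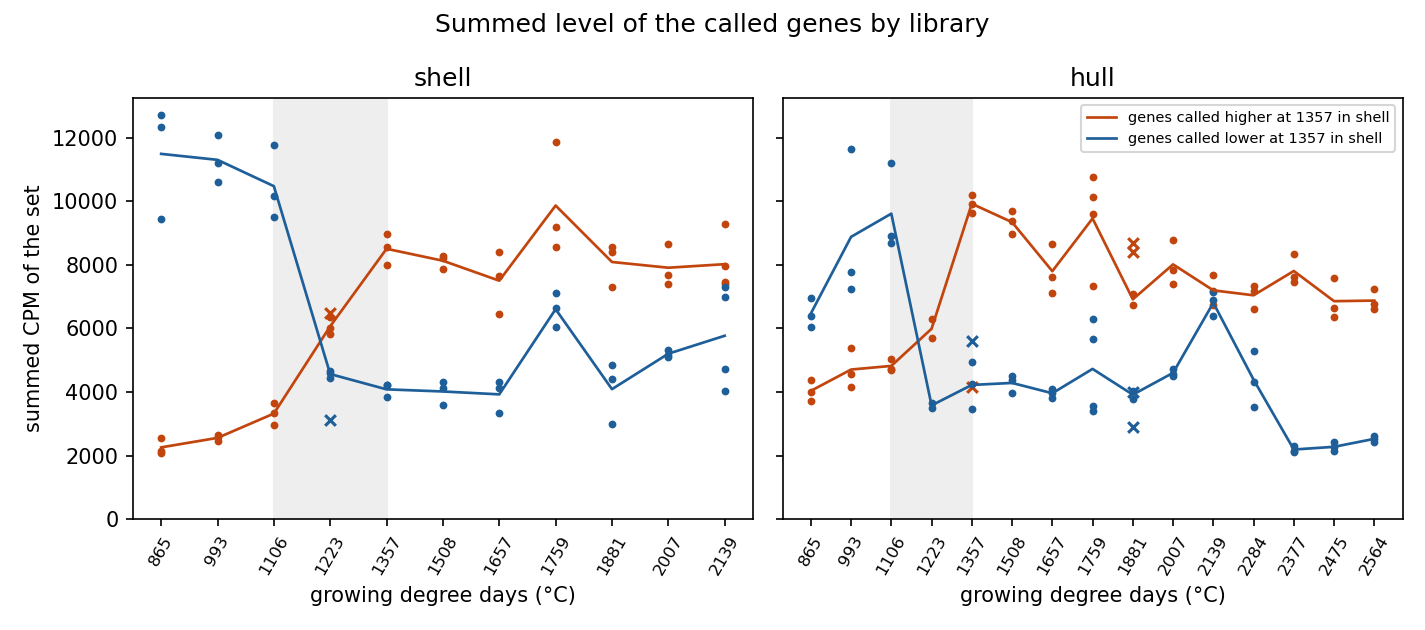
Summed CPM of the 192 genes called higher (orange) and the 104 called lower (blue) at 1357 in shell, in each shell library on the left and each hull library on the right, against growing degree days (°C). Points are libraries, lines join group means, crosses are the libraries left out (S14, H15, H33 and H34), and the grey band spans 1106 to 1357; both sets changed level within the band in both tissues.

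The shell at 1223 degree days was set between both ends. For the called genes, the mean of S13, S15 and S16 lay between the means of 1106 and 1357 in 142 of the 192 higher genes (74.0%) and beyond the 1357 mean in 40. It lay on the far side of the 1106 mean in 10. Among the 104 lower genes it lay between in 61 (58.7%), beyond 1357 in 31 and before 1106 in 12. At 1223 the median gene stood at 67.0% of its log2 change in the higher set and 69.1% in the lower set. These genes were chosen for a wide gap between the ends, which makes a mean between them likely. The same shares over all genes tested were not computed, so these values are description only. With S14 counted as a 1223 library, 138 and 56 genes lay between, and the medians were 74.2% and 76.1%.

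Over all genes, each step to or from the middle point had more calls than the whole interval. At 1223 against 1106, 726 genes were higher (3.87% of the 18747 tested) and 983 lower (5.24%). At 1357 against 1223, 495 were higher (2.64%) and 474 lower (2.53%). Both counts exceed the 192 and 104 of the full interval, although it spans both steps. These 3 comparisons share libraries, and their counts are given side by side only. Library S12 weighed on the step that holds 1106, where 313 genes were higher and 418 lower without it, and leaving out S16 gave 624 lower. In the step after 1223, the counts without S15 were 249 and 299 and those without S19 were 269 and 289, while without S16 271 and without S17 306 were called higher. With S14 kept, the first step gave 1081 and 1332 calls and the other step 677 and 705.

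**Figure D4:**
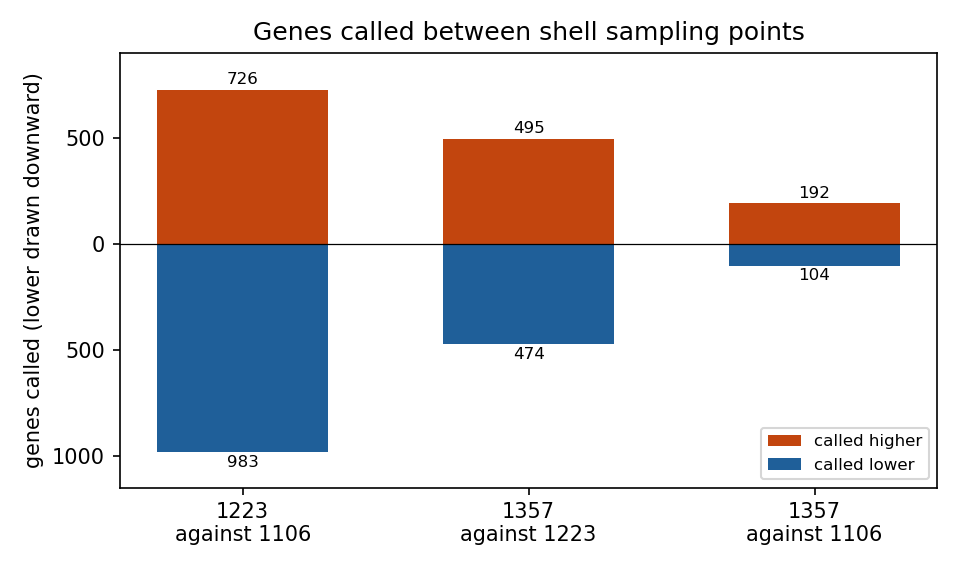
Number of genes called higher (orange, upward) and lower (blue, downward) in shell for 1223 against 1106, 1357 against 1223 and 1357 against 1106 degree days, of 18747 tested, without S14. The bars for the whole interval, 192 and 104, are the shortest, and those for 1223 against 1106, 726 and 983, the tallest.

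The departure at 1223 was tested directly, as 1223 against the mean of 1106 and 1357. In shell 617 genes were higher at 1223 than that mean (3.29%) and 672 lower (3.58%). In hull, with other libraries, 406 of 18943 genes were higher (2.14%) and 730 lower (3.85%). Of the genes tested in both tissues, 101 were higher at 1223 in both, which is 16.5% of the shell list and 25.1% of the hull list, and 174 were lower in both, which is 27.3% and 24.3%. Opposite calls in hull were made for 7 of the shell genes that were higher and 1 that was lower. The hull point has only 2 libraries at 1223. Without H14 the hull counts were 201 and 264, and without H13 313 were lower, with the lone library taken to vary like those of the other groups. The lower count in shell was 391 without S15, 424 without S16 and 443 without S12. S13, S15 and S16 resembled hull at 1223 (r = 0.94, 0.92 and 0.919) more than the shell libraries of 1106 and 1357 did (r = 0.834 to 0.896). The hull-high genes took 0.253%, 0.26% and 0.194% of their counts, against 0.0918% to 0.234% at 1106 and 1357. The part of this in the departure at 1223 and in its overlap with hull was not tested.

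With S14, H15, H33 and H34 kept under their labels, the same contrast called 1004 and 1039 genes in shell and 169 and 334 in hull. The lists then shared 90 genes that were higher, 8.99% of the shell list and 53.9% of the hull list, and 122 that were lower, 12.2% and 36.7%.

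The hull of the same fruit stage had no part in the choice of these genes and was measured in 3 libraries at 1357 (H17, H18 and H19) and 3 at 1106 (H9, H11 and H12). In hull 525 genes were higher (2.77% of 18943 tested) and 543 lower (2.87%). Of the shell's higher genes that could be tested in hull, 81 of 189 (42.9%) were also higher in hull and 0 were lower. Of the lower genes, 30 of 98 (30.6%) were also lower and 0 were higher. The shared genes are 15.9% and 5.67% of the hull lists. Fold changes had the same sign in 177 of the 189 and in 79 of the 98, with medians of 1.08 and -0.75 in hull, against -0.02 over all genes tested there. The share of all genes tested in both tissues with the same sign is not given, so the sign counts are description only. Leaving out H11 brought the hull calls to 346 higher, and leaving out H18 to 327 lower.

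In hull the higher genes summed to 9640, 9927 and 10209 CPM in H17, H18 and H19, against 4723, 5037 and 4703 CPM in H9, H11 and H12. The lower genes summed to 4933, 4261 and 3471 CPM at 1357 in hull, against 11214, 8922 and 8705 CPM at 1106. H15, labelled hull at 1357, stood apart with 4151 CPM of the higher genes, below all 3 hull libraries at 1106, and with 5595 CPM of the lower genes. With H15, H33 and H34 kept in the hull fit, 629 of the 19074 genes tested were called higher in hull and 362 lower. In that fit 57 of 190 of the shell's higher genes (30%) and 25 of 101 lower genes (24.8%) were called in the same direction. Opposite calls were made for 2 of the lower genes, and the medians were 0.96 and -0.36.

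All 4 genes described singly changed in hull in the direction they had in shell. PvKer.02.g046510 had 13.1, 6.07 and 4.82 CPM in hull at 1357, against 0.0718, 0.237 and 0 CPM at 1106 (log2 fold change 6, edgeR adjusted p = 2.83e-06). PvKer.02.g038390 had 30.3, 44.4 and 75.1 CPM, against 9.05, 9.90 and 12.8 CPM (log2 fold change 2.24, edgeR adjusted p = 5.21e-05). PvKer.02.g038250 stood lower in hull than in shell at both points: in hull it had 1.18, 1.66 and 0.982 CPM at 1357, against 7.97, 3.73 and 4.67 CPM at 1106 (log2 fold change -2.09, edgeR adjusted p = 0.0368), while H15 had 33.8 CPM. PvKer.11.g274710 had 7.79, 7.54 and 4.29 CPM in hull at 1357, against 223, 126 and 77.9 CPM at 1106 (log2 fold change -4.44, edgeR adjusted p = 1.19e-05).

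**Figure D5:**
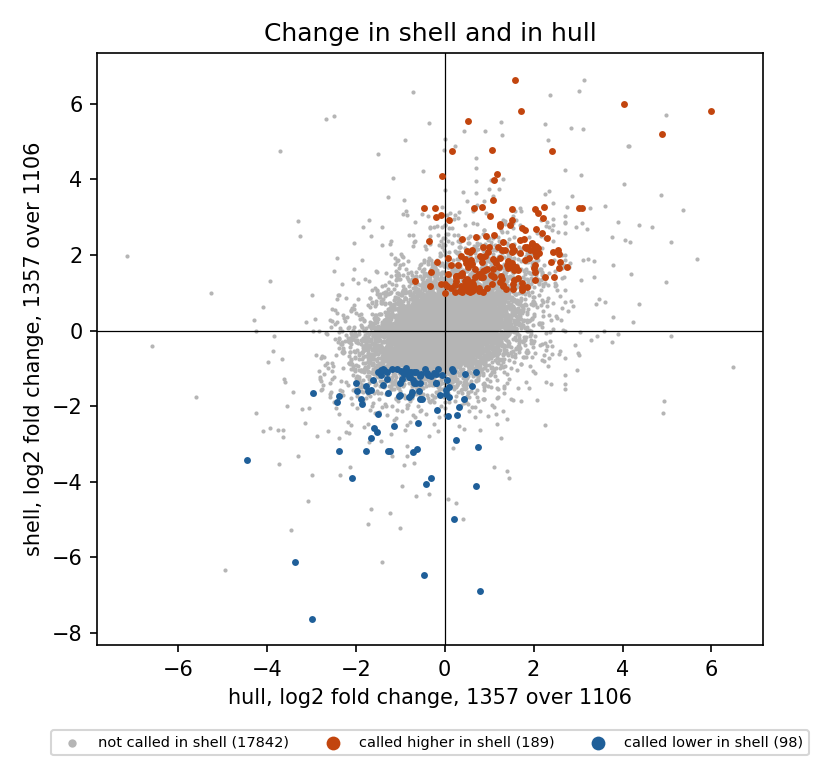
Log2 fold change of 1357 over 1106 in shell (vertical) against hull (horizontal) for genes tested in both tissues; orange are the 189 genes called higher in shell, blue the 98 called lower, grey the others. Of the coloured genes, 177 orange and 79 blue lie in the quadrant where both tissues changed the same way. The matching share of the grey genes is not given.

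The difference between the tissues was tested as the shell change minus the hull change, in a fit of 78 libraries. It called 30 genes with a more positive change in shell (0.151% of 19931 tested) and 19 with a more negative change (0.0953%). Of the 296 called shell genes, 8 were among these, 3 of the higher and 5 of the lower, all with the larger change in shell. The median difference was 0.73 for the higher genes and -0.87 for the lower genes, and 0.02 over all genes tested; since these genes were chosen for their change in shell, a larger change there was built into the choice. For the 4 genes described singly the difference did not pass the test, with adjusted p from 0.387 to 0.967 and standard errors of 0.532 to 0.985 on the log2 scale, so it is not shown that they changed alike. The direction of the split depended on the scaling: 30 and 19 with TMM, 26 and 37 with DESeq2's size factors and 27 and 33 without contig-named identifiers. The counts were small and moved with nearly every library. Leaving out S10 raised them to 90 and 68, and leaving out S12 lowered them to 7 and 7. The other libraries whose removal changed a count more than 1.5-fold were S11, S18, S19, H9, H11, H12, H17 and H18, with 6 to 20 genes more positive and 3 to 13 more negative. With the 4 libraries that resemble another tissue kept, the counts were 50 and 170 of 19954 genes tested. They included 6 of the 192 higher genes (3.12%) and 21 of the 104 lower genes (20.2%), in the direction of their shell change.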

How the data were processed

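Per the labels' protocols, a TruSeq RNA kit was used and both read ends were sequenced. The unit of the single table deposited by the authors is the raw read count of each gene in each library. Trimmomatic 0.39 and Bowtie2 2.3.4.1 are named in the submitters' processing notes; the counting tool, genome build, annotation and use of strand are, in the sources used here, not given, so counts of near-identical or overlapping genes are uncertain. The tests were run in R 4.3.3 with edgeR 4.0.16 (TMM, filterByExpr by group, glmQLFit, glmQLFTest, 1 mean per group), with adjustment over all genes tested in each of 8 comparisons. Fits held 34 shell libraries, 44 hull libraries or all 78. Standard errors are the absolute log2 fold change over the square root of F. CPM used TMM factors over hull and shell. Kernel-high and hull-high genes averaged at least 10 CPM in that tissue and at least 10 times (hull: 5 times) their mean in shell from 1508 on. Contig-named identifiers (1252) stayed in library totals but not in reported counts.

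The genes named singly were those with the largest absolute log2 fold change among called genes with at least 10 CPM in the higher group and no overlap between groups; without gene names, the rule limits them to 2 rises and 2 falls. The members, comparisons and lists were chosen with earlier results of these data known, and 3 comparisons (1223 against both ends in shell and in hull, and the later against the earlier shell points) were added after the first results of this work. Alternatives were DESeq2 1.42.0, limma-voom (limma 3.58.1), DESeq2's size factors, no filter, other minimum fold changes, smaller fits, libraries kept or left out. The labels used here give no batch, so no within-batch value was computed.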

Additional observations from a re-analysis of the deposited data

Results flagged for a closer look

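In groups of 4 libraries, 14 combinations of a group and a measure were examined for a library far from the other 3, and 5 were marked; chance marks about 1 in 20. Among them are S14, labelled shell at 1223, and H15, labelled hull at 1357, which the correlations also set apart. S14 had 3131 summed CPM of the genes called lower at 1357, against 4443 to 4662 in the other shell libraries of its point. H15 had 4151 summed CPM of the genes called higher, against 9640 to 10209 in the other hull libraries, and 33.8 CPM of PvKer.02.g038250, against 0.982 to 1.66 CPM. S15, shell at 1223, had 9.49% of its counts on contig-named identifiers, against 0.237% to 0.890% in the other libraries of its group, S14 among them. It also had 10.1 CPM of PvKer.02.g046510, against 1.37 to 2.84 CPM.

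The change from 1106 to 1357 differed between shell and hull for 30 genes with a more positive change in shell and 19 with a more negative one. Contig-named identifiers, which no count of called genes includes, held 4.84%, 3.26% and 1.06% of the counts of S17, S18 and S19, above the 0.392% to 0.76% of the 1106 libraries.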

How the results depend on the processing

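No paired analysis was possible because the titles carry running numbers and no replicate number that groups share. The 4 genes described singly kept their sign in every alternative that tested them. Their choice as the largest changes in these same libraries made that nearly certain. Counts are given as higher, then lower, and which of the 2 was larger depended on the setting: for 1357 against 1106 in shell it was 229 and 252 with no minimum fold change and 39 and 46 without S12, against 192 and 104, and for the shell minus hull change it was 26 and 37 with DESeq2's size factors, against 30 and 19. DESeq2's size factors also turned the order for 1357 against 1223 (471 and 511, against 495 and 474). They turned it for 1223 against both ends in shell (653 and 612, against 617 and 672). They turned it for the later against the earlier points too (3348 and 3308, against 3059 and 3611). In hull they turned it for 1357 against 1106 (570 and 484, against 525 and 543). The order stayed for 1357 and 1223 against 1106 in shell and for 1223 against both ends in hull. A minimum log2 fold change of 2 left 76 and 31 genes for 1357 against 1106 in shell, 262 and 139 for 1223 against 1106, 97 and 153 for 1357 against 1223, 197 and 81 for 1223 against both ends, 1224 and 1379 for the later against the earlier points, 135 and 116 for 1357 against 1106 in hull, 52 and 183 for 1223 against both ends in hull, and 6 and 7 for the shell minus hull change. With no minimum, 229 and 252 were called for 1357 against 1106 in shell, 1275 and 1936 for 1223 against 1106, 857 and 1002 for 1357 against 1223, 1477 and 1605 for 1223 against both ends, 5530 and 6143 for the later against the earlier points, 1000 and 1522 for 1357 against 1106 in hull, and 1440 and 1262 for 1223 against both ends in hull; the shell and hull lists then shared 102 and 95 genes. These follow from the threshold itself.

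With only the libraries compared in the fit, 409 and 174 genes were called for 1357 against 1106 in shell, 747 and 752 for 1357 against 1223, and 318 and 164 for the shell minus hull change. Of the genes called with all shell libraries in the fit, 162 of 174 tested and 83 of 100 tested were called there too. DESeq2 called 365 and 199 for 1357 against 1106, including 192 and 96 of those reported, and 76 and 102 for the shell minus hull change, for which limma-voom called 47 and 34, DESeq2's size factors 26 and 37, and the fit without contig-named identifiers 27 and 33. Libraries that resemble another tissue, when kept, gave 1004 and 1039 for 1223 against both ends in shell, 169 and 334 in hull, and 50 and 170 for the shell minus hull change. The causes of these differences were not tested.

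Leaving out each library in turn gave 39 to 156 higher and 17 to 108 lower for 1357 against 1106 in shell, 313 to 838 and 418 to 1229 for 1223 against 1106, 249 to 386 and 289 to 459 for 1357 against 1223, 428 to 745 and 391 to 758 for 1223 against both ends, 346 to 462 and 327 to 425 for 1357 against 1106 in hull, 201 to 410 and 264 to 708 for 1223 against both ends in hull, and 6 to 90 and 3 to 68 for the shell minus hull change. Of the 4 genes described singly, PvKer.02.g038250 lost its call in 1 fit (without S17); DESeq2 gave it no adjusted p. Depth limits the low genes most: of the 192 higher genes, 11 averaged below 1 CPM at 1357. With 3 libraries a group, the length of the lists for 1357 against 1106 in shell depended strongly on single libraries, and least on S10. For the later against the earlier shell points, leaving out a library gave 2978 to 3391 higher and 3337 to 3750 lower, against 3059 and 3611.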
